A study of Rattus norvegicus with 29 samples.

Results

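Circadian clock genes were measured in the blood mononuclear cells of 29 male Wistar rats. The group comprised 10 genes, chosen by name on the array (Per1, Per2, Per3, Cry1, Cry2, Nr1d1, Nr1d2, Dbp, Arntl and Bhlhe40, which the array lists under its older name Bhlhb2). They are 10 of the 24268 genes tested and are read by 12 of the array's 41012 probes, 3 of them for Per3. All 10 could be tested, and the probe representing each was well above background on 29 of 29 arrays and saturated on none.

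Rats ate standard chow (control) or chow plus a fat-rich cafeteria diet, used to induce obesity, over 4 months and were sampled at 6 months of age. Fed rats ate freely, fasted rats had gone 14 h without food, and refed rats had food again for 6 h after the same fast. The control diet had 4 fed, 5 fasted and 5 refed rats, and the cafeteria diet 5 of each. The labels name no transgene or drug, and the hour of blood sampling is not given in the sources used here. A difference between feeding states therefore cannot be told apart from a difference in sampling hour. Each array compared the Cy5-labelled RNA of 1 rat with a Cy3-labelled pool of all samples, so a value is the log2 ratio of that rat to the pool, and a value of 0 means equal to the pool.

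The clock of mammalian cells is a loop of transcription. ARNTL, also called BMAL1, pairs with CLOCK, binds E-box sequences and switches on the Per, Cry, Nr1d and Dbp genes. The PER and CRY proteins then inhibit that pair, and the NR1D proteins (REV-ERBs) repress Arntl through a sequence called the RORE. DBP and its relative TEF activate genes through D-box sequences, at which NFIL3 represses. Glucocorticoids and feeding are known to reset the clocks of peripheral tissues, and Per1 is a known glucocorticoid-induced gene.

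RefSeq promoter windows of the GRCr8 build, running from 250 bases before to 50 bases after a transcript start, were found for 9 of the 10 genes. That of Per1 lies inside the gene, downstream of the gene start listed for it, so the sequence at that start was not searched. Motifs of the loop and 1 of cAMP signalling were searched on both strands: the E-box CACGTG, its variant CACGTT (the E-prime box), the D-box TTATGTAA or TTACGTAA, the cAMP response element TGACGTCA, and the RORE. The windows that held an E-box, a D-box or the RORE are shown here, with every matched motif in capitals, because these are the sequences through which the genes described next are known to act on each other.
Per2, chr9:99496944-99497243 (minus strand): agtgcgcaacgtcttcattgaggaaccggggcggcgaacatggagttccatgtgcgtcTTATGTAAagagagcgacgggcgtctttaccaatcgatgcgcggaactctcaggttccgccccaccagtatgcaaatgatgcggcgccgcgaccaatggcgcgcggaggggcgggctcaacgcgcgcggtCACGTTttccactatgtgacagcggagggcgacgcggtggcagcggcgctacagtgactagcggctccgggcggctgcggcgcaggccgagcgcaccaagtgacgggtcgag
Nr1d1, chr10:84229405-84229704 (minus strand): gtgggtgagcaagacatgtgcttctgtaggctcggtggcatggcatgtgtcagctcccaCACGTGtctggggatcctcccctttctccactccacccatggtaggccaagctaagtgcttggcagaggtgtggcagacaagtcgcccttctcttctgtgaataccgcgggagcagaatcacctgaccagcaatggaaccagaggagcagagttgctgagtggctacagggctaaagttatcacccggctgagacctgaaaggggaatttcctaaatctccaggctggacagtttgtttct
Bhlhe40, chr4:143174200-143174499 (plus strand): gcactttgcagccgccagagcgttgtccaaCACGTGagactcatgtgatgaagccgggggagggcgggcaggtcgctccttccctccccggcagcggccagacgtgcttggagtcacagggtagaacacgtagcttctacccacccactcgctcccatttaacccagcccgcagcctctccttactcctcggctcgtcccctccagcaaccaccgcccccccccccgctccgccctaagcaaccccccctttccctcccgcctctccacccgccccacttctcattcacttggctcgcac
Arntl, chr1:176766078-176766377 (plus strand): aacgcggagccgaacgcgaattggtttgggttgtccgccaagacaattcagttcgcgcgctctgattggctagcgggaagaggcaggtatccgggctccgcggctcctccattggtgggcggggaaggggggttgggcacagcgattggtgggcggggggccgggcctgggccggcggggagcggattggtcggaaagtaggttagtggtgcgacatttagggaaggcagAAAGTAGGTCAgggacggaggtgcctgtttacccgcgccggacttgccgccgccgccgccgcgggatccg
The Per2 window held a D-box starting 192 bases before the transcript start and an E-prime box starting 62 bases before it. The Nr1d1 window, the downstream of 2 listed for that gene, held an E-box 191 bases before its start, and the Bhlhe40 window held one 220 bases before its start. The Arntl window held a RORE 20 bases before its start. E-prime boxes were also matched in the Cry2 window and in the other Nr1d1 window. Over all 33469 windows of this length, 6.42% held the E-box, 4.83% the E-prime box, 1.01% the D-box, 1.83% the cAMP response element and 0.356% the RORE. A match describes these letters only, and binding was not measured.

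The cells carried markers of blood mononuclear cells and of other blood cells. All 9 T cell, 6 of 6 B cell, 8 of 8 NK cell and 9 of 10 monocyte markers on the array were well above background on all 29 arrays, against 1 of 6 markers of other tissues. So were 6 of 6 erythroid, 5 of 5 plasma cell, 9 of 12 platelet and 5 of 12 neutrophil markers. The contrast with other tissues is limited, as Ins2 was well above background on 28 arrays and Apoa1 on 24. Umod was so on 2 arrays, and Myh6 and Gfap on 0. Platelet markers moved with feeding state: the mean log2 ratio of 10 of them fell between the control groups from 0.69 ± 0.13 after fasting to -0.78 ± 0.40 after refeeding, and was -0.02 ± 0.28 and -0.50 ± 0.76 (SD, n = 5 each throughout) in the matching cafeteria groups. In such a bulk sample, fewer cells of a type and less RNA per cell cannot be told apart. The arrays lay on 8 slides and were extracted from their images in 2 runs of 14 and 15 arrays. Median Cy5 signals were between 103.2 and 154.2 units, with a mean of 138.3 ± 7.1 (SD) in run 1 and 114.2 ± 7.7 in run 2. The groups were spread unevenly over the runs.

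Per2, a core repressor of the loop, was the clock gene that changed most firmly, and it rose on refeeding in rats of both diets. In control rats its log2 ratio was -0.60, -0.21, -0.19, -0.03 and -0.18 after fasting and 0.27, 0.29, 0.51, 0.76 and 0.26 after refeeding. In cafeteria rats it was -0.04, -0.02, 0.01, -0.27 and -0.25 after fasting and 0.60, 0.65, 0.40, 0.29 and 0.58 after refeeding. Every refed rat lay above every fasted rat of either diet. The rise was 0.66 ± 0.11 (SE) in control rats (limma, adjusted p = 0.000831) and 0.62 ± 0.11 in cafeteria rats (adjusted p = 0.00553). Averaged over both diets it was 0.64 ± 0.07, or 1.56-fold, with adjusted p = 1.93e-05, and by p-value it ranked 6 among the 24268 genes tested. The rise differed between diets by -0.04 ± 0.15 (95% interval -0.35 to 0.27), which was not called.

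Within the image extraction runs, the Per2 rise was 0.54 and 0.69 in control rats and 0.62 and 0.62 in cafeteria rats. These rest on few arrays: run 2 held 1 control fasted array, and run 1 held 1 cafeteria fasted and 1 cafeteria refed array. Refed exceeded fasted rats on each of the 3 slides that held both groups, in either diet, with few rats of each group on a slide. Fitted with mean platelet marker level as a covariate, the rise was 0.56 ± 0.15 in control rats (adjusted p = 0.116), a fit in which 4 genes in all were called. It was 0.58 ± 0.11 in cafeteria rats (adjusted p = 0.0108) and 0.57 ± 0.10 averaged (adjusted p = 0.00473). Platelet means did not overlap between control fasted (0.46 to 0.80) and control refed rats (-1.27 to -0.20). In control rats this fit therefore separates platelet level from refeeding poorly for any gene, with Cry2, Nr1d1 and Dbp below included.

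Per2 was lower in fasted than in fed rats when averaged over both diets, but this call was fragile. A difference in sampling hour could not be separated from fasting here either. The fed values were -0.02, 0.06, 0.21 and -0.08 in control rats and 0.38, -0.01, 0.25, 0.03 and 0.23 in cafeteria rats. Fed and fasted rats therefore overlapped in both diets. The fall averaged over both diets was -0.29 ± 0.08 (adjusted p = 0.0315), and 10 of 10 fasted rats lay below the fed mean. Within a single diet it was -0.28 ± 0.11 and -0.29 ± 0.11 and was not called (adjusted p = 0.307 and 0.251). Leaving out any 1 of 8 arrays ended the averaged call, the highest adjusted p being 0.0737 without control fed rat 7. With the platelet covariate the averaged fall was -0.26 (adjusted p = 0.0713), and with median centring -0.27 (adjusted p = 0.823), so both ended the call. Ordered by group mean, Per2 ran from cafeteria refed (0.50 ± 0.15, SD) through control refed (0.42 ± 0.22), cafeteria fed (0.18 ± 0.16), control fed (0.04 ± 0.13) and cafeteria fasted (-0.11 ± 0.14) to control fasted (-0.24 ± 0.21), and each group overlapped its neighbour in that order.

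Per1, a period gene that glucocorticoids induce, moved the opposite way: up on fasting and down on refeeding. In cafeteria rats its log2 ratio was -0.88, -0.35, -0.52, 0.03 and -0.47 when fed, -0.06, 0.74, 0.16, 0.39 and 0.33 when fasted and -0.54, -0.16, -0.60, -0.11 and -0.76 when refed. All 5 fasted rats lay above all 5 refed rats, whereas fed and fasted rats overlapped by 1 rat on each side. The rise on fasting was 0.75 ± 0.18, or 1.69-fold (adjusted p = 0.0401), and the fall on refeeding was -0.75 ± 0.18 (adjusted p = 0.0308).

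In control rats Per1 was -0.68, -0.49, -0.57 and -0.34 when fed, 0.01, -0.24, 0.30, -0.69 and 0.26 when fasted and -0.02, -0.30, -0.39, -0.61 and -0.16 when refed. The control groups overlapped, with fasted rat 11 just below the lowest fed rat. The change was 0.45 ± 0.19 on fasting (adjusted p = 0.345) and -0.22 ± 0.18 on refeeding, neither of them called. Averaged over both diets, Per1 rose by 0.60 ± 0.13 on fasting (adjusted p = 0.00709) and changed by -0.49 ± 0.13 on refeeding (adjusted p = 0.00922). The refeeding change differed between diets by -0.53 ± 0.25 (adjusted p = 0.663), which was not called.

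The Per1 calls in cafeteria rats were fragile. The fasting call ended without any 1 of 7 arrays (adjusted p up to 0.139, without cafeteria fasted rat 11), and the refeeding call without any 1 of 6 (up to 0.0993, without cafeteria fasted rat 5). Run and group were uneven here: run 1 held 4 of 5 cafeteria fed but 1 of 5 cafeteria fasted arrays. Within the runs the fasting rise was 1.20 and 0.56, and with run as a term it was 0.78 (adjusted p = 0.0936). The averaged calls were kept without each single array. With the platelet covariate the averaged changes were 0.59 ± 0.14 on fasting (adjusted p = 0.0136) and -0.47 ± 0.18 on refeeding (adjusted p = 0.154). The cafeteria refeeding call was also lost from Agilent's processed signals (adjusted p = 0.0681), from Cy5 alone (0.0763), in the authors' deposited table (0.0596) and, narrowly, with the platelet covariate (0.0501).

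**Figure D1:**
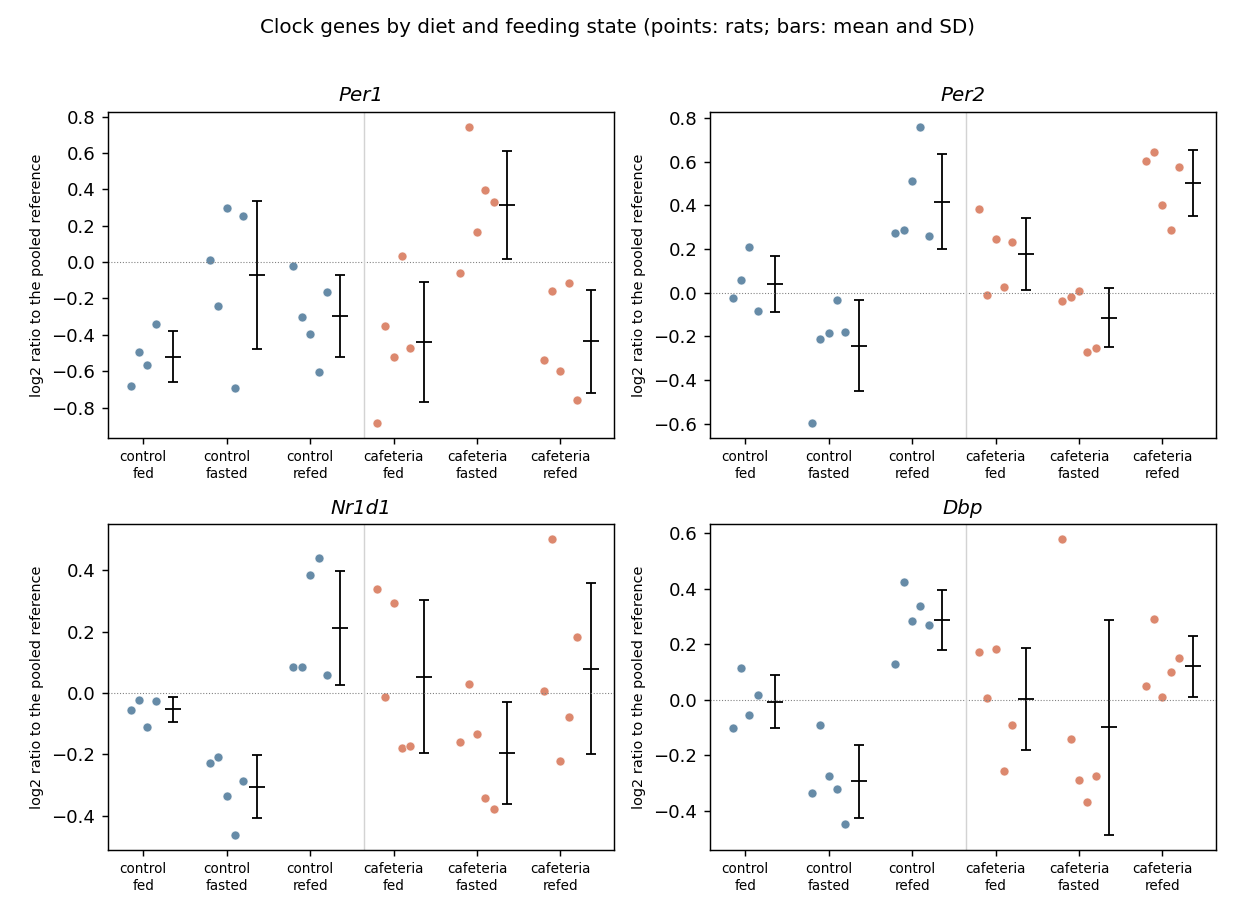
Log2 ratio to the pooled reference (vertical axis) of Per1, Per2, Nr1d1 and Dbp in each rat, by diet and feeding state; points are rats and the bars beside them the group mean and SD. Per2 is higher in every refed than in every fasted rat, Per1 in cafeteria rats is highest after fasting, and 1 cafeteria fasted rat has a Dbp value of 0.58.

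Per3, the third period gene, was not called in any comparison. Its change was 0.09 ± 0.07 on refeeding in control and 0.16 ± 0.07 in cafeteria rats, and 0.13 ± 0.05 averaged (adjusted p = 0.0805). Its representative probe was dim, with a median Cy5 signal of 143.6 units, and its probes disagreed: the averaged change was 0.06 ± 0.05 and -0.13 ± 0.06 on the other two. Under 4 of 11 alternatives the averaged rise passed the threshold, with a change of 0.45 from Agilent's processed signals.

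Of the cryptochromes, the partners of the PER proteins, Cry2 was called for refeeding and Cry1 for diet. Cry2 in control rats was -0.11, -0.24, -0.14, -0.24 and -0.28 when fasted and 0.05, -0.02, -0.11, 0.04 and -0.01 when refed. The ranges overlapped by 1 rat on each side, and the probe was dim, with a median Cy5 signal of 131.9 units. The rise was small, at 0.19 ± 0.06 or 1.14-fold (adjusted p = 0.0388), and was 0.07 ± 0.06 in cafeteria rats, which was not called. The averaged rise was 0.13 ± 0.04 (adjusted p = 0.0336). Leaving out any 1 of 7 arrays ended the control call and any 1 of 9 the averaged one, with adjusted p up to 0.1 without control fasted rat 14 and up to 0.0743 without cafeteria fasted rat 11. The control call was lost under 6 of 11 alternatives and the averaged call under 5 of 11, the platelet covariate among them (adjusted p = 0.191 and 0.115).

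Cry1 was higher in cafeteria than in control rats. It was 0.03, -0.09, 0.09 and -0.0010 in control fed and 0.29, -0.05, 0.16, -0.05 and 0.14 in cafeteria fed rats. It was -0.08, 0.02, -0.23, 0.17 and -0.08 in control fasted and 0.19, 0.17, 0.30, 0.29 and 0.06 in cafeteria fasted rats. It was 0.08, 0.17, 0.08, -0.11 and 0.06 in control refed and 0.19, 0.24, 0.19, 0.16 and 0.25 in cafeteria refed rats. The ranges overlapped in each feeding state, although 13 of 15 cafeteria rats lay above the control mean.

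Averaged over the 3 feeding states, the Cry1 difference was 0.16 ± 0.04, or 1.12-fold (adjusted p = 0.0251), and Cry1 was 1 of 10 clock genes called, against 0.795% of all genes higher and 2.44% lower (3.24% called). By state it was 0.09 ± 0.07 in fed, 0.24 ± 0.07 in fasted (adjusted p = 0.093) and 0.15 ± 0.07 in refed rats, with no call in any. Cell type markers also differed with diet. The median difference was 0.56 over 6 erythroid markers (6 above 0, 1 called higher). It was -0.46 over 5 plasma cell markers and -0.23 over 10 platelet markers (0 above 0 and 0 called in either). It was 0.17 over 6 B cell markers (6 above 0) and -0.14 over 9 T cell markers (2 above 0), with 0 called in either. Over 10 neutrophil markers it was 0.11 (8 above 0, 1 called higher). Over 9 monocyte and 8 NK cell markers it was 0.04 and -0.04. Apart from the platelet markers, the part of these markers in the Cry1 difference was not tested. With the platelet covariate that difference was 0.13 ± 0.04 (adjusted p = 0.0472). Without control fed rat 4 the averaged call was lost (adjusted p = 0.0511). Within the runs the difference was 0.12 and -0.05 in fed, 0.20 and 0.29 in fasted and 0.06 and 0.20 in refed rats. Only 1 cafeteria array was in run 2 for fed rats, and only 1 in run 1 for fasted and for refed rats. Run 2 also held only 1 control fasted array. Within a state, no clock gene was called for diet, where 0.00412% (fed), 0.849% (fasted) and 0.223% (refed) of all genes were; at an unadjusted p under 0.05 there were 0, 3 and 1 clock genes and 1100, 3584 and 1941 genes in all by limma.

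**Figure D2:**
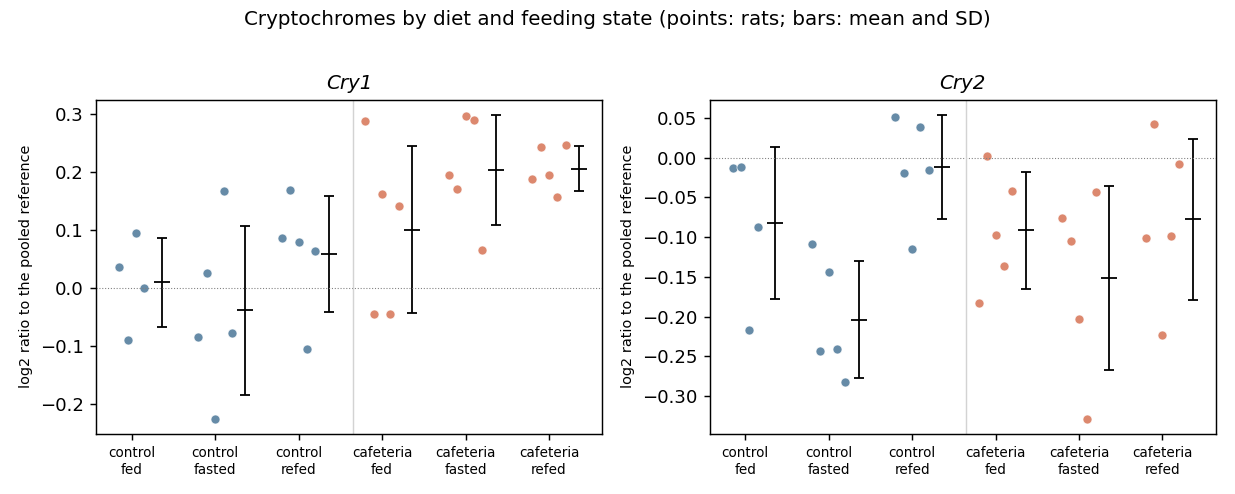
Log2 ratio to the pooled reference (vertical axis) of Cry1 and Cry2 in each rat, by diet and feeding state; points are rats and the bars beside them the group mean and SD. Cry1 means are 0.20, 0.21 and 0.10 in cafeteria fasted, refed and fed rats and lower in the control groups. The Cry2 group mean is lowest in control fasted rats, and the lowest single Cry2 value is that of a cafeteria fasted rat.

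Nr1d1, the REV-ERB alpha repressor of Arntl, rose on refeeding in control rats. Its log2 ratio was -0.23, -0.21, -0.34, -0.46 and -0.29 when fasted and 0.08, 0.08, 0.39, 0.44 and 0.06 when refed, and these groups did not overlap. The control fed rats, at -0.05, -0.02, -0.11 and -0.03, lay between them without overlapping either. The rise was 0.52 ± 0.12, or 1.43-fold (adjusted p = 0.00521). In cafeteria rats the fasted values were -0.16, 0.03, -0.13, -0.34 and -0.38 and the refed values 0.01, 0.50, -0.22, -0.08 and 0.18, and these overlapped.

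The cafeteria change of Nr1d1 was 0.27 ± 0.12 and was not called, and the diets differed by -0.24 ± 0.17 (95% interval -0.58 to 0.10). Averaged over both diets the rise was 0.39 ± 0.08 (adjusted p = 0.00196). Fitted with mean platelet marker level as a covariate, it was 0.36 ± 0.16 in control rats (adjusted p = 0.322) and 0.29 ± 0.11 averaged (adjusted p = 0.162). Both calls were lost in this fit, which has the limit given for Per2. The fasting change was -0.25 ± 0.12 in either diet and -0.25 ± 0.09 averaged (adjusted p = 0.104). Nr1d2, the related REV-ERB beta, was not called, with its largest change for a feeding state at 0.17 ± 0.07 on fasting in cafeteria rats (adjusted p = 0.313).

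Dbp, the D-box activator that serves as an output of the loop, rose in the same comparison as Nr1d1. In control rats it was -0.34, -0.09, -0.28, -0.32 and -0.45 when fasted and 0.13, 0.42, 0.28, 0.34 and 0.27 when refed, with no overlap. The rise was 0.58 ± 0.12, or 1.50-fold (adjusted p = 0.00299), and no single array ended the call. With the platelet covariate it was 0.56 ± 0.17 (adjusted p = 0.157). In cafeteria rats it was 0.58, -0.14, -0.29, -0.37 and -0.28 when fasted and 0.05, 0.29, 0.01, 0.10 and 0.15 when refed, where fasted rat 2 alone lay above the refed rats.

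The cafeteria change of Dbp was 0.22 ± 0.12 and was not called, and the diets differed by -0.36 ± 0.17 (adjusted p = 0.66). The raw Cy5 signal of cafeteria fasted rat 2 for Dbp was 2129 units. That lay within the 1398 to 2489 units of the other cafeteria fasted rats, and why its ratio to the pool was high was not tested. Without cafeteria fasted rat 2 the cafeteria change was 0.39 ± 0.08 and was called (adjusted p = 0.016), and the difference between diets was -0.19 ± 0.12 (adjusted p = 0.708). The averaged rise was 0.40 ± 0.09 (adjusted p = 0.00239), without that rat 0.49 ± 0.06 (adjusted p = 3.13e-05), and with the platelet covariate 0.39 ± 0.12 (adjusted p = 0.0768). The averaged fasting change was -0.19 ± 0.09 (adjusted p = 0.258) with all rats, and -0.28 (adjusted p = 0.00689) without cafeteria fasted rat 2. That rat was singled out by its Dbp value, and the p-values without it do not allow for this choice. Within the runs the control refeeding rise was 0.53 and 0.75 for Dbp and 0.39 and 0.58 for Nr1d1, with 1 control fasted array in run 2.

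Arntl, the activator of the loop, and Bhlhe40, a repressor that competes at E-boxes, were not called in any comparison. Arntl changed by 0.01 ± 0.09 on refeeding in control rats (95% interval -0.18 to 0.20) and by -0.17 ± 0.09 in cafeteria rats (-0.36 to 0.02). Bhlhe40 changed by -0.07 ± 0.14 (-0.36 to 0.21) and -0.33 ± 0.14 (-0.62 to -0.05, adjusted p = 0.284). The Arntl window printed above, with its RORE, and the Bhlhe40 window, with its E-box, are those of genes with no called change.

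The group means of Arntl ran from 0.02 ± 0.13 (SD) in cafeteria refed to 0.18 ± 0.08 in cafeteria fasted rats, and those of Bhlhe40 from -0.23 ± 0.17 to 0.11 ± 0.25 in the same groups. Those of Per3 ran from -0.04 ± 0.12 in cafeteria fasted to 0.12 ± 0.11 in cafeteria refed rats, and those of Nr1d2 from -0.08 ± 0.05 in control fed to 0.10 ± 0.10 in cafeteria fasted rats. Per1 ran from -0.52 ± 0.14 in control fed to 0.31 ± 0.30 in cafeteria fasted rats, and Nr1d1 and Dbp were lowest in control fasted (-0.30 ± 0.10 and -0.29 ± 0.13) and highest in control refed rats (0.21 ± 0.19 and 0.29 ± 0.11). For each of the 10 genes, each of the 5 pairs of neighbouring groups in the order of means overlapped.

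**Figure D3:**
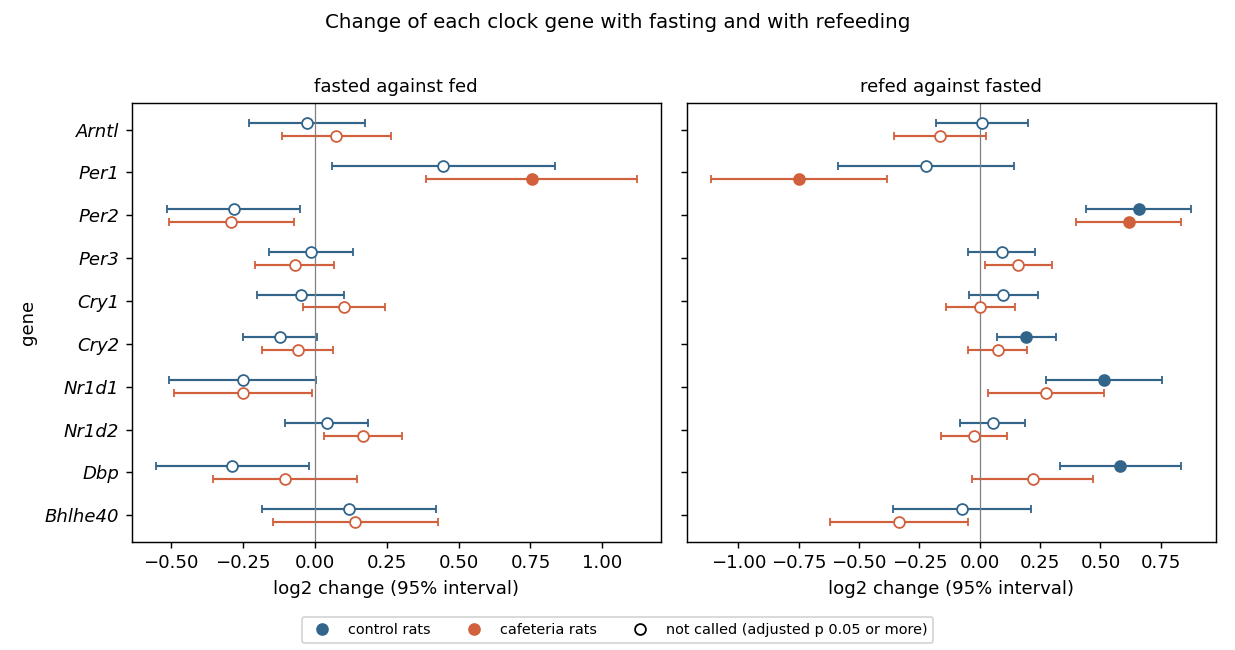
Log2 change (horizontal axis) of each clock gene with fasting (left) and refeeding (right) in control and cafeteria rats; points are differences of group means, lines their 95% intervals, filled points those called at an adjusted p under 0.05. Per2 is called on refeeding in both diets (0.66 and 0.62), Per1 in both panels in cafeteria rats, and Cry2, Nr1d1 and Dbp on refeeding in control rats.

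Counted together, 4 of 10 clock genes rose on refeeding in control rats and none fell, against 3.3% of all genes higher and 6% lower (9.3% called). In cafeteria rats 1 rose and 1 fell, against 0.758% higher and 0.647% lower (1.41% called). Averaged over both diets 4 rose and 1 fell, against 5.96% and 7.52% (13.5% called), with a median change of 0.09 over the clock genes and 0.0024 over all genes. On fasting none was called in control rats, where 0.177% of all genes were, and 3 clock genes and 2809 genes in all had an unadjusted p under 0.05 by limma. On fasting in cafeteria rats 1 rose, against 0.47% of all genes higher and 0.383% lower (0.853% called), and averaged over both diets 1 rose and 1 fell, against 1.82% of all genes higher and 2.27% lower (4.09% called). The fasting and refeeding comparisons share the fasted rats, and the clock genes were chosen with earlier results of these data known. These counts are therefore descriptions and not independent support. With median centring in place of loess, which left 806 genes called on refeeding in control rats and 0 in cafeteria rats, 2 clock gene calls passed over all comparisons, the averaged refeeding rises of Per2 (adjusted p = 0.0114) and Nr1d1 (0.0413).

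Refed and fed rats did not differ by any called gene in either diet (0% of all genes; limma). At an unadjusted p under 0.05 there were 1416 genes in control and 1037 in cafeteria rats, of which 3 and 2 were clock genes. Per2 was 0.38 ± 0.11 higher in refed than in fed control rats (adjusted p = 0.371), with all 5 refed above all fed rats, and 0.33 ± 0.11 higher in cafeteria rats (adjusted p = 1). No difference between diets in the fasting or the refeeding response was called for any gene (775 and 1814 genes, and 0 and 2 clock genes, at an unadjusted p under 0.05).

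Of 26 other clock-linked genes listed, 21 were on the array and 19 were tested. On refeeding in control rats 1 rose and 3 fell, against 3.3% and 6% of all genes. In cafeteria rats none rose and 1 fell, against 0.758% and 0.647%. The averaged comparison had 2 higher and 5 lower, against 5.96% and 7.52%, with a median change of -0.03. On fasting 2 rose in cafeteria rats (0.47% of all genes) and 2 averaged (1.82%), and none was called in control rats. Nfil3, the D-box repressor, fell on refeeding in both diets. In control rats it was 0.16, 0.28, 0.59, 0.02 and 0.61 when fasted and -0.01, -0.29, -0.60, -0.50 and -0.26 when refed. In cafeteria rats it was 0.30, 0.48, 0.27, 0.49 and 0.47 when fasted and -0.15, -0.22, -0.26, -0.29 and -0.70 when refed. The groups did not overlap in either diet, and the fall was -0.67 ± 0.16 (adjusted p = 0.00693) and -0.72 ± 0.16 (adjusted p = 0.0173).

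On fasting, Nfil3 rose by 0.68 ± 0.16 in cafeteria rats (adjusted p = 0.0344) and its change in control rats was 0.55 ± 0.17 (adjusted p = 0.16). Tef, the D-box activator related to Dbp, rose on refeeding in control rats by 0.23 ± 0.07 (adjusted p = 0.0449). Usp2, a deubiquitinase linked to the clock, rose on fasting in cafeteria rats by 0.25 ± 0.06 (adjusted p = 0.0291). The kinases Csnk1e and Gsk3b, which phosphorylate clock proteins, fell on refeeding in control rats by 0.56 ± 0.12 and 0.53 ± 0.13 on the log2 scale (adjusted p = 0.00423 and 0.00965).

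Averaged over both diets, Rora, an activator at ROREs, fell on refeeding by 0.45 ± 0.12 (adjusted p = 0.0109) and Wee1, a cell cycle kinase under clock control, rose by 0.16 ± 0.05 (adjusted p = 0.0394). The partners of ARNTL showed no called change: on refeeding Clock changed by 0.08 ± 0.05 in control and -0.17 ± 0.05 in cafeteria rats (adjusted p = 0.103), and Npas2 by -0.10 ± 0.07 and 0.04 ± 0.07.

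**Figure D4:**
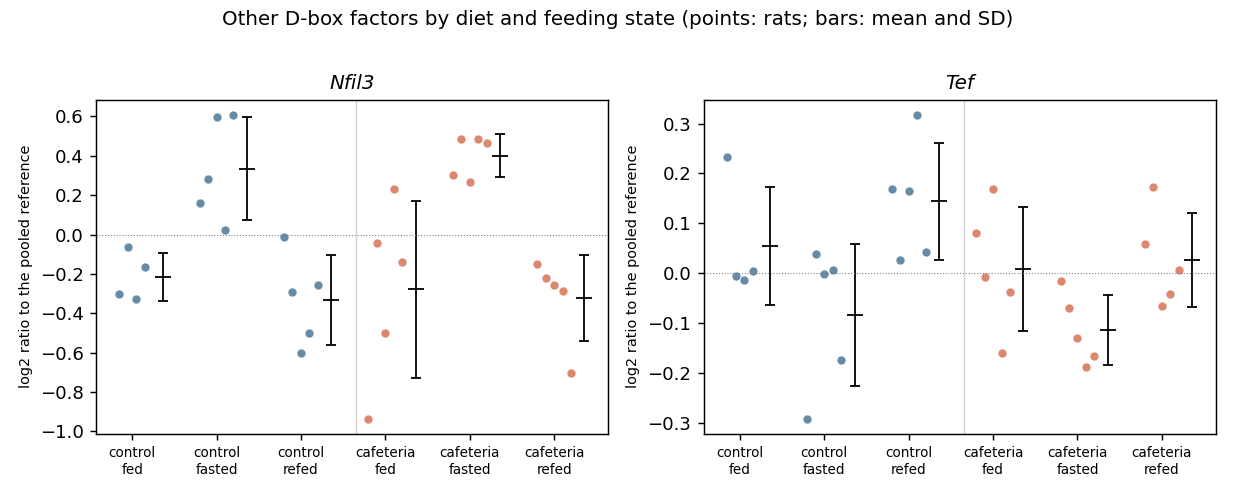
Log2 ratio to the pooled reference (vertical axis) of the D-box repressor Nfil3 and the D-box activator Tef in each rat, by diet and feeding state; points are rats and the bars beside them the group mean and SD. All fasted rats lie above all refed rats of their diet for Nfil3, with group means of 0.33 and -0.33 in control and 0.40 and -0.32 in cafeteria rats.

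Glucocorticoid-induced and immediate early genes, which respond to signals that are also known to induce Per1, were counted beside it. Of 11 glucocorticoid-induced genes, 3 rose on fasting in cafeteria rats, against 0.47% of all genes: Klf9 by 0.91 ± 0.18, Sgk1 by 0.90 ± 0.22 and Mt1 by 0.66 ± 0.13 (adjusted p = 0.0203, 0.0444 and 0.0178). The median change of the list there was 0.63, against 0.0044 over all genes. In control rats none rose and Cebpd fell by 0.84 ± 0.17 on the log2 scale (adjusted p = 0.0446). On fasting averaged over both diets 5 rose (1.82% of all genes) and 1, Cebpd, fell (2.27%). On refeeding in control rats Cebpd alone was called, rising by 0.66 ± 0.16 (adjusted p = 0.0101; 3.3% of all genes). On refeeding in cafeteria rats Sgk1 and Mt1 fell (0.647% of all genes), and averaged 1 rose and 2 fell, against 5.96% and 7.52%. Of 13 immediate early genes, none was called on fasting in either diet and 2 rose averaged over both (1.82% of all genes). On refeeding in cafeteria rats 3 fell, against 0.647%: Egr1 by 1.66 ± 0.34, Atf3 by 1.13 ± 0.28 and Nr4a2 by 0.71 ± 0.17 on the log2 scale (adjusted p = 0.012, 0.0416 and 0.0274). The median change of the list there was -0.71, against -0.0030 over all genes. None of these 13 was called on refeeding in control rats, where their median change was -0.36, and averaged over both diets 7 fell, against 7.52% of all genes. The part of the platelet marker shift in the changes of these other genes was not tested. Whether the signals behind these lists changed Per1 was not tested either.

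Deviations of each rat from its group mean were compared for the 45 pairs of clock genes, with permutations within groups. No pair passed by Pearson's r after adjustment. The closest was Per1 with Nr1d2 (r = 0.666, permutation p = 0.00115, adjusted p = 0.0517; rho = 0.652, permutation p = 0.00132, adjusted p = 0.0297; n = 29), with r = 0.645 without the 2 farthest rats and 0.792 and 0.475 within the runs. Nr1d1 with Dbp had r = 0.457 (permutation p = 0.0127, adjusted p = 0.129) and rho = 0.613 (permutation p = 0.00114, adjusted p = 0.0297), with r = 0.418 without the 2 farthest rats and 0.638 and 0.373 within the runs.

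Over the 29 arrays, the genes whose log2 ratios correlated best with Per1 were Rasd1 (r = 0.891), Junb (0.861) and Nfil3 (0.835). Those for Per2 included Taf5 (0.842) and Rbm5 (0.83), and for Nr1d1 they were Gba2 (0.823), Ptcd1 (0.812) and Nsun4 (0.8). Those for Dbp were Klhl8 (0.756), Ddx18 (0.753) and Ifrd2 (0.736), for Cry1 Whamm (0.749), Kdm3a (0.723) and Appbp2 (0.71), and for Cry2 Tnf (0.753), Ppp1r18 (0.749) and Cers5 (0.732). These are descriptions of likeness over rats that share the group differences.

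**Figure D5:**
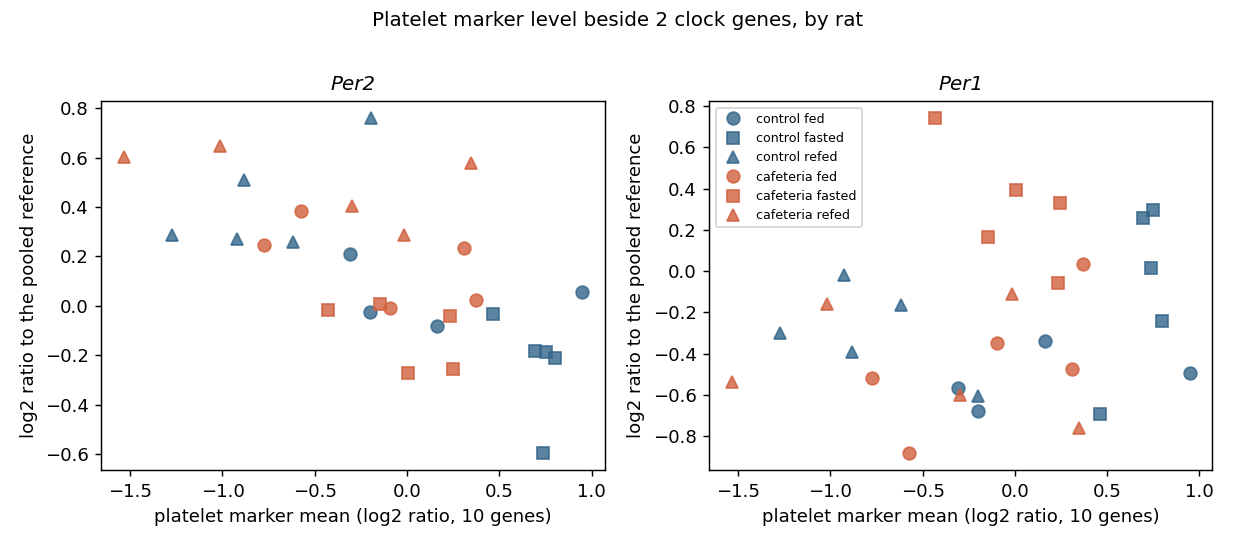
Mean log2 ratio of 10 platelet markers (horizontal axis) and log2 ratio of Per2 (left) and Per1 (right) to the pooled reference (vertical axis) in each rat; colours are diets and symbols feeding states. Control fasted rats have platelet means between 0.46 and 0.80 and control refed rats between -1.27 and -0.20, and the refed rats of both diets lie above the fasted rats for Per2.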

How the data were processed

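RNA of mononuclear cells, separated on Ficoll from saphenous vein blood of 29 rats per the labels, was measured on 29 Agilent 2-colour rat arrays. Spot intensity (mean) and local background intensity (median) in both colours are deposited as made by Feature Extraction 9.5.1.1, per the file headers, which place probes on the rn4 build. The authors' deposited value table is on a log2 scale, as found by setting it against the scanner's Cy5 intensity (slopes 0.985 to 1.02, column medians 9.37 to 9.76); its normalization across arrays is not given in the sources used here.

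Here limma 3.58.1 in R 4.3.3 corrected background (normexp, offset 50) and normalized within arrays by loess; 526 outlier values were left out. Probes well above background on at least 4 arrays were kept, with the brightest per gene. All 6 groups entered 1 fit of group means, and 14 comparisons were each adjusted by Benjamini-Hochberg over 24268 genes. P-values are 2-sided, genes were called at an adjusted p under 0.05, and the fit was tested on simulated data. The clock genes were all named; other clock-linked genes were named where called in any comparison, plus Clock, Npas2, Rora and Nfil3, and up to 4 called genes of the 2 other lists. The 3 genes most like each called clock gene were named by Pearson's r, of which 1 is not reported here. Members and lists were chosen with earlier results of these data known. The number of arrays limits the precision. Alternatives covered the source of the values, normalization, filter, choice of probe, slide, run, platelet level, rat number and each array in turn. On rn4, per the file headers, the probes lie at chr10:55867840-55868424 (Per1), chr9:90645610-90645669 (Per2), chr7:20708985-20709044 (Cry1), chr3:76802827-76802886 (Cry2), chr10:87543165-87543519 (Nr1d1) and chr1:96178020-96178079 (Dbp); the exon or UTR each reads was not examined here.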

Additional observations from a re-analysis of the deposited data

Results flagged for a closer look

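In 60 combinations of clock gene and group, 3 had 1 rat far from the others of its group by Dixon's test, where chance alone gives about 1 in 20. Dbp in cafeteria fasted rat 2 was 0.58, against -0.14 in the nearest and -0.37 in the lowest rat. Nr1d2 in control refed rat 3 was 0.17, against 0.0023 in the nearest rat. Bhlhe40 in cafeteria refed rat 15 was -0.53, against -0.18 in the nearest rat.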

How the results depend on the processing

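No clock gene, read by its representative probe or the mean of its probes, reversed its direction in any alternative run for the changes with an unadjusted p under 0.05, although 1 other Per3 probe taken alone changed by -0.12 and -0.13 on refeeding in cafeteria rats and averaged over both diets. Per2 on refeeding averaged over both diets was called under all 11 alternatives (adjusted p 5.7e-06 to 0.0114). With median centring in place of loess, 0 clock genes were called on fasting in cafeteria rats and averaged, 0 on refeeding in control and cafeteria rats, 2 on refeeding averaged and 0 for diet averaged. On fasting in cafeteria rats 0 were called with no filter, with run as a fixed term and with slide as a fixed term, the last chosen after seeing the data, and with slide 1 was called for diet in fasted rats. With the platelet covariate, 1 was called on fasting averaged, 0, 1 and 1 on refeeding in control rats, cafeteria rats and averaged. On refeeding in cafeteria rats 1 was called from processed signals, Cy5 alone and the authors' table. The causes were not tested.

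Leaving out 1 array at a time gave 0 to 1 clock genes on fasting in cafeteria rats and 1 to 3 averaged, 3 to 4, 1 to 3 and 4 to 5 on refeeding in control rats, cafeteria rats and averaged, 0 to 1 for diet in fasted rats and averaged, and 0 in the other comparisons. The range of group means moved by over 1 SD from 0.75 to 0.97 (processed signals) and 1.02 (authors' table) for Per2, 0.16 to 0.51, 0.38 (authors' table) and 0.30 (Cy5 alone) for Per3, and 0.52 to 0.97 and 0.88 (authors' table) for Nr1d1. It moved with processed signals to 0.35 for Cry2 and 0.41 for Nr1d2, with the authors' table to 1.15 for Per1, 0.37 for Cry1 and 0.81 for Dbp, and with median centring to 0.44 for Cry1. Dim probes (Per3, Cry2, Nr1d2) limit what can be seen.

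Counts over all genes also moved. On fasting in cafeteria rats 207 genes were called, against 22 with run as a term and 1 with slide, and on refeeding in control rats 2257, against 806 with median centring and 4 with the platelet covariate. Control and cafeteria rats share numbers, and 2 of 14 same-numbered pairs deviated together by a correlation over 0.1 (range -0.151 to 0.207). Rats with different numbers were not compared, so this cannot decide whether the numbers mark pairs. With the replicate block, 1 clock gene was called for diet averaged and 0 in fed, fasted and refed rats (634, 0, 284 and 138 genes in all).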
